A study of Mus musculus with 8 samples.

Results

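Spleen cells of young HMGA1a transgenic mice (TG) were compared with those of control littermates of wild type genotype (WT) at 2 months of age. The comparison comprises 4 of the 8 arrays of the series, chosen by their titles: 2 TG and 2 WT mice, all male and of the strain C57/BL6, with 1 Affymetrix mouse array per mouse. The other 4 arrays hold TG and WT mice of 12 months, when the TG mice have lymphoid tumours by the series' design text; it places 2 months before tumours arise. Each group has a mouse numbered replicate 1 and a mouse numbered replicate 2, and TG was set against WT within each number and pooled. The labels used here do not name the promoter of the transgene or its founder line, and they do not say whether mice of one number share a litter. The level of the transgene and of the mouse Hmga1 gene was not analysed here, because no probe set carried Hmga1 as its single symbol.

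HMGA1a belongs to the high mobility group A proteins, small chromatin proteins whose AT-hook motifs bind the minor groove of AT-rich DNA and alter how transcription factors assemble at promoters and enhancers. They are abundant in embryonic and dividing cells, scarce in most adult tissue, and overexpressed in many tumours of blood and other tissues. The spleen holds mostly B and T lymphocytes, with smaller numbers of natural killer (NK) cells, macrophages, dendritic cells and blood cell precursors. In RNA of mixed spleen cells, fewer cells of a type and less RNA per cell cannot be told apart.

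Signals are the deposited probe set intensities, and a difference is TG minus WT on the scale log2(signal + 16), given ± the standard error of the limma fit. On this scale a difference of 1 is 2-fold, and changes of dim genes come out smaller than on the raw scale. Median signals of the 4 arrays lay between 44.9 and 47.7. The mature B cell markers Ms4a1, which encodes CD20, and Cd79a had signals of 5057 to 6685 and 3448 to 5306 on the 4 arrays, and the T cell marker Cd3d 1195 to 1517. Arrays of one replicate number were closer than arrays of one genotype: across genes r was 0.984 between TG and WT of replicate 1 and 0.982 in replicate 2, against 0.954 between both WT and 0.951 between both TG arrays. RNA quality was read from control probe sets as 3' signal over 5' signal. For Gapdh this ratio was 1.01 (WT) and 1.07 (TG) in replicate 1 and 1.39 and 1.48 in replicate 2, while for beta-actin it was slightly lower in replicate 2, at 1.24 and 1.21 against 1.18 and 1.14.

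The WT array of replicate 1 stood apart through transcripts of the exocrine pancreas, the organ that secretes digestive enzymes and lies beside the spleen. Cela2a, which encodes a pancreatic elastase, had a signal of 3582 there and of 42.6 on the other WT array, 116 in TG mouse 1 and 22.1 in TG mouse 2. Ctrb1, the chymotrypsinogen gene, had 2097 on that array against 41.8, 95.8 and 12.8. Cel, the bile salt-activated lipase gene, had 1119 against 28.9, 50.5 and 32.5. All 3 genes were high on 1 array only, and the other WT array lay at or near the TG level. Summed over the 13 of 39 listed pancreas genes past the filter on dim probe sets, the signal was 17597 on that array against 983 (WT mouse 2), 1317 (TG mouse 1) and 1056 (TG mouse 2), and 1065 to 1339 on the arrays of 12 months. No gene of the endocrine pancreas list (insulin, glucagon and their like) passed the filter, 0 of 10.

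The same signals were also read without the list, which is a second description and no independent finding. Of all probe sets, 37 had a signal of at least 200 on the WT array of replicate 1 and at least 4 times that on every other array. No probe set did so on any of the other 3 arrays of 2 months. At 12 months 15 probe sets did so on the TG array of replicate 1 and 10 on the TG array of replicate 2. Of the 37, 30 belonged to 18 genes of the pancreas list, 1 to Dmbt1, and 6 had no single symbol. They were 4.75 to 215 times as bright as in TG mouse 1, with a median of 21.5, and TG mouse 1 had the second highest signal of all 8 arrays for 26 of the 37. Of the 13 listed genes past the filter, 5 (Cela2a, Ctrb1, Cel, Clps and Reg1) passed it only through this array, so their difference was fixed by how they were admitted. As a description, the median over the 13 genes was -1.73 pooled, -3.64 within replicate 1 and 0.11 within replicate 2, beside 0.01, 0.02 and -0.01 over all genes. Without the WT array of replicate 1 it was 0.18. Bhlha15, which encodes a transcription factor of secretory cells including plasma cells, differed by -0.31 and 0.89. The kallikrein gene Klk1 depended on the probe set: the one that stood for it differed by -0.06 and -0.02, while the 3 others of its 4 were over 3 times as bright on the WT array of replicate 1 as in TG mouse 1, such as 687 against 117.

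**Figure D1:**
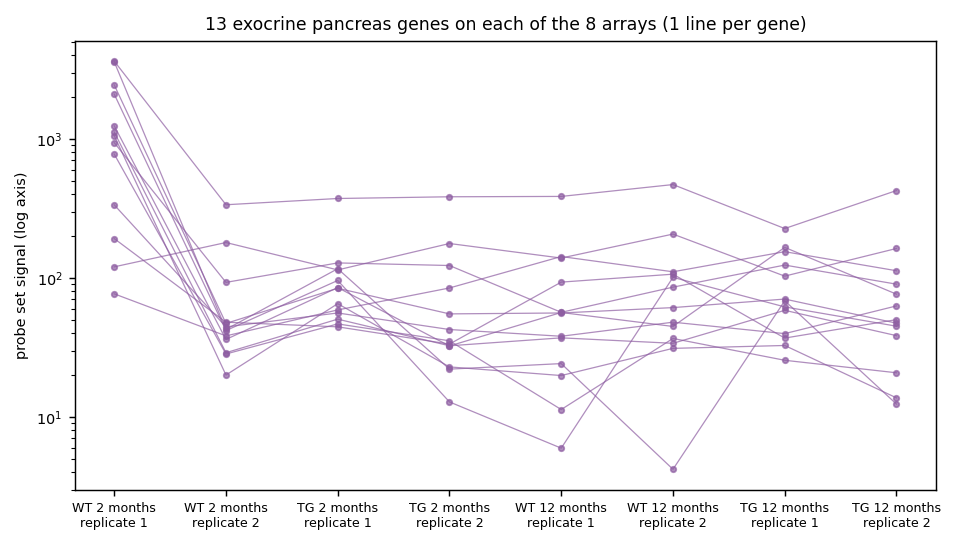
Probe set signals (log axis) of the 13 exocrine pancreas genes past the filter on each of the 8 arrays, 1 line per gene. Most lines start above the other arrays on the WT array of replicate 1 at 2 months (Cela2a at 3582) and lie low on every other array, TG and WT.

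No gene passed the test between TG and WT at 2 months. In the limma fit to all 8 arrays with the replicate number as a block, 0 of 11189 genes (0%) had an adjusted p under 0.05, and the smallest was 0.9998. An unadjusted p under 0.05 was reached by 189 genes (1.69%), of which 111 were higher (0.992%) and 78 lower (0.697%) in TG, and exact p-values would give 559 by chance. Without the array holding the pancreas transcripts these counts were 0 and 174, and without the replicate block 0 and 44. The fit takes its spread from both ages, and the 12-month arrays disagreed more: the gap between the TG effects of the 2 replicates had a median of 0.19 at 2 months and 0.27 at 12 months. A fit to the 4 arrays of 2 months alone, with 1 residual degree of freedom, called 10 genes and gave 703 unadjusted p-values under 0.05. With 2 mice a group, an exact permutation test of a single gene can give no two-sided p below 0.333.

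Across genes the pairs shared little. The median size of the difference between TG and WT was 0.12 within replicate 1 and 0.15 within replicate 2, against 0.26 between both WT arrays and 0.27 between both TG arrays. The sign was the same in both replicates for 51.4% of genes, and the differences of the replicates correlated across genes at r = 0.03. Only 6 genes (0.0536%) differed by 2-fold or more in the same direction in both replicates. The 4 higher in TG (0.0357%) were Gzmm, Cd163l1, Ctsg and Gpr15, and the 2 lower (0.0179%) were Ctrb1 and Vmn1r44. Ctrb1 passed the filter on dim probe sets only through the WT array of replicate 1. The filter mean also takes in the TG arrays. Gpr15 had 14.9 to 28.1 on the WT arrays of both ages, under the filter's 45.25, so its TG signals admitted it. Its direction was thus partly built in. WT signals lay on both sides of 45.25 for Cd163l1 (34.6 to 56.7) and Ctsg (16.6 to 69.7). The mean of their WT arrays on the filter's scale lay below it. TG signals thus admitted these genes too, and their direction was also partly built in. With 64 in place of 16 as the added constant, 1 gene differed by 2-fold or more in the same direction in both replicates.

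**Figure D2:**
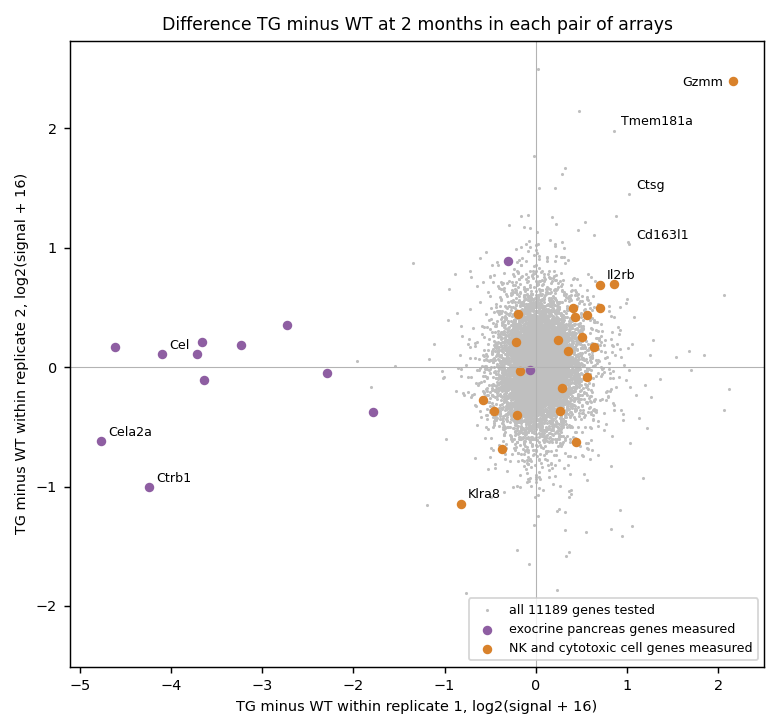
Difference TG minus WT within replicate 1 (x axis) against replicate 2 (y axis), both on log2(signal + 16), for all 11189 genes (grey), with exocrine pancreas (purple) and NK and cytotoxic cell genes (orange). Gzmm lies alone at the top right (2.16 and 2.40), and the pancreas enzymes lie far to the left near 0 on the y axis.

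Gzmm had the smallest p of all genes. It encodes granzyme M, a serine protease that NK cells and some T cells store in cytotoxic granules and deliver into target cells. Its signal was 259.9 in TG mouse 1 and 312 in TG mouse 2, against 45.7 and 46.0 in the WT mice. Both WT arrays lay within 1 unit of each other, and both TG arrays lay far above them. The difference was 2.16 within replicate 1 and 2.40 within replicate 2, pooled 2.28 ± 0.34, or 4.86-fold, and 2.09 without the WT array that held pancreas transcripts. In the fit to all arrays its unadjusted p was 0.000151 and its adjusted p 0.9998 (limma). It passed the test in the fit to the 2-month arrays alone (adjusted p = 4.98e-06), without the TG array of replicate 1 at 12 months (0.0145) and without that of replicate 2 (0.0103). Its 12-month signals were 1089 and 429.98 in TG against 83.9 and 81.1 in WT, so the TG mice of both ages lay above the WT mice of both ages. The differences at the 2 ages, 2.28 and 2.83, did not differ past the test (unadjusted p = 0.277 in limma).

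The sequence before the Gzmm gene is shown because its gene carries the largest difference shared by both pairs of mice and because HMGA1a binds AT-rich DNA. RefSeq (GRCm38.p6) gives Gzmm 2 transcription starts on the plus strand. The 250 bases before each follow, 5' to 3', with runs of 6 or more A or T in capitals.
Gzmm, first start, chr10:79688770-79689019: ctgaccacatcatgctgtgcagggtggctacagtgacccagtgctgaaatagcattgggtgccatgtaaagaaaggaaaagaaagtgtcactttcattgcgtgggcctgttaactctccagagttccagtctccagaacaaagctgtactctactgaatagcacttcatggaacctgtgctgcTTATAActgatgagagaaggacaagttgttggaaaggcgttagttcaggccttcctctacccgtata
Gzmm, second start, chr10:79693576-79693825: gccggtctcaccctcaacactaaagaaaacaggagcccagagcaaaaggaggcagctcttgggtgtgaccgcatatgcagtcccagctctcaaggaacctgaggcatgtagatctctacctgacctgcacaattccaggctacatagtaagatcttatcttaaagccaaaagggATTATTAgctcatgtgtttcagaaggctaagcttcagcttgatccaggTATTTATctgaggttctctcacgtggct
A and T made up 53.2% of the first window and 52.4% of the second, at the 68.9th and 66.2nd percentile of 32850 promoter windows of the same length, whose median was 47.6%. The first window held 1 such run and the second 2, and 66.9% of all windows held at least 1. A run of A and T is a description of the letters, and no binding was measured. The genes beside Gzmm showed no like difference: of its 10 nearest genes, 5 on either side in RefSeq order, 6 were measured, with differences from -0.32 (Polrmt) to 0.26 (Cdc34) and 0 unadjusted p-values under 0.05 (limma).

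Il2rb, the second gene by p, encodes the beta chain shared by the receptors for interleukin-2 and interleukin-15, cytokines on which NK cells and memory T cells depend. Signals were 558 and 485 in the TG mice and 336 and 295 in the WT mice, and the groups did not overlap. The difference was 0.70 ± 0.14, with 0.70 and 0.69 within the replicates (unadjusted p = 0.00141 in the limma fit to all arrays, and adjusted p = 0.0199 in the fit to the 2-month arrays). A second probe set of the gene was also higher in both pairs, by 0.84 and 0.49. At 12 months the difference was 0.49.

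Other genes of cytotoxic granules and effector lymphocytes lay higher in both TG mice than in both WT mice, by smaller amounts. Ctsw, which encodes the protease cathepsin W of NK and CD8 T cells, had signals of 605 and 634 in TG and 366 and 446 in WT. Its difference was 0.60 ± 0.27, with 0.70 and 0.49 within the replicates, and it passed the test in the fit to the 2-month arrays (adjusted p = 0.0416, limma). Gzmk, the granzyme K gene, had 83.7 and 82.2 in TG and 38.9 and 44.4 in WT, a difference of 0.78 ± 0.46. Eomes and Tbx21 encode the T-box transcription factors that direct cytotoxic lymphocytes. Eomes had 257 and 244 against 189.8 and 168, and Tbx21 had 188 and 211 against 127 and 175. Nkg7, a granule membrane protein gene, differed by 0.43 in replicate 1 and 0.42 in replicate 2, and Cst7, which encodes a cystatin that inhibits granule cathepsins, by 0.56 and 0.43. The chemokine gene Ccl5 and the kinase gene Txk were apart in the same direction, by 0.40 ± 0.30 and 0.24 ± 0.25. Apart from Gzmm and Il2rb, no gene of this list had an unadjusted p under 0.05 in the fit to all arrays.

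Some NK cell receptor genes and the granzyme A gene lay the other way. Klra8, which encodes the activating receptor Ly49H of NK cells, had signals of 132 and 64.1 in TG and 246 and 161 in WT. Its difference was -0.98 ± 0.47, with -0.82 and -1.14 within the replicates, and it passed the test in the fit to the 2-month arrays (adjusted p = 0.0327, limma). Its probe set can bind transcripts of related Ly49 genes. Gzma, the granzyme A gene, had 719.98 and 616 in TG against 936 and 1002 in WT, a difference of -0.53 ± 0.23. Ncr1, which encodes NKp46, a receptor that marks NK cells, had 53.3 and 65.6 against 79.2 and 89.4, and Klrk1, which encodes NKG2D, had 185 and 222 against 283 and 273. Fasl, the death ligand gene, differed by -0.30 ± 0.24. The receptor genes had no common direction: Klrc1, which encodes NKG2A, lay higher in TG within both pairs (0.24 and 0.22), Klrg1 lower (-0.17 and -0.03), and Klrd1, Klre1 and Cd244a differed in sign between the pairs. For Gzmb (-0.09 ± 0.32) and the pore-forming perforin gene Prf1 (-0.0037 ± 0.32) the groups overlapped and the replicates differed in sign.

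Over the NK and cytotoxic cell list, 23 of 26 genes were measured, 14 higher and 9 lower in TG, beside 52.5% of all genes higher. Both TG arrays lay above both WT arrays for 10 of the 23, beside 10.1% of all genes, and below them for 5, beside 7.83%. The median was 0.23, with 0.35 and 0.17 within the replicates. The median moved with single arrays and with the choice of probe sets: it was 0.03 without WT mouse 1, 0.40 without WT mouse 2, and 0.07 when the probe sets of a gene were averaged.

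**Figure D3:**
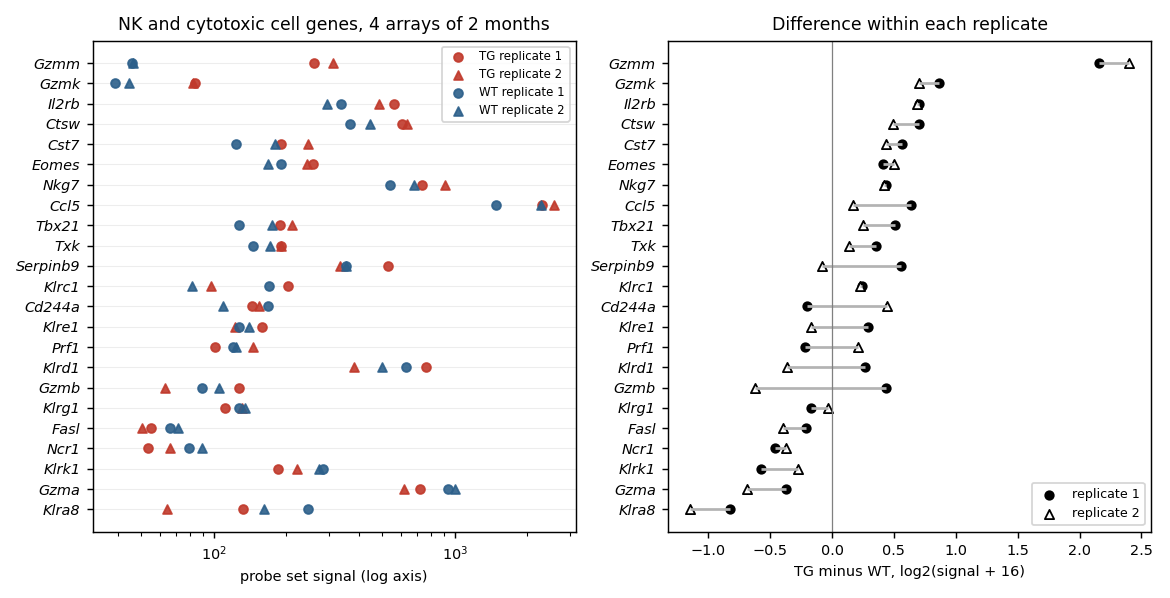
Left, signals (log axis) of the 23 measured NK and cytotoxic cell genes on the 4 arrays of 2 months, TG in red and WT in blue, circles for replicate 1 and triangles for replicate 2. Right, the difference TG minus WT within each replicate on log2(signal + 16); genes from Gzmm to Txk lie right of 0 in both replicates, and those from Fasl to Klra8 lie left of 0 in both.

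T cell genes lay slightly higher in TG. Of 24 listed genes 21 were measured, 16 higher and 5 lower, and 14 were higher within both replicates, beside 27.2% of all genes. The median was 0.18, with 0.25 and 0.13 within the replicates, and it was 0.06 without WT mouse 1 and 0.36 without WT mouse 2. No gene of the list had an unadjusted p under 0.05 (limma). Cd8b1, the CD8 beta chain gene, had signals of 691 and 606 in TG and 439 and 463 in WT, a difference of 0.51 ± 0.33. Cd8a, the alpha chain gene, had 739 and 549.7 against 546 and 519.6, while Cd4 had 296 and 403 against 339 and 368, with no shared direction. Cxcr3, a chemokine receptor gene of effector T and NK cells, had 537 and 506 in TG against 329 and 346 in WT. It differed by 0.60 ± 0.31 and passed the test in the fit to the 2-month arrays (adjusted p = 0.0440, limma). Gpr15, which encodes a receptor that guides T cells to the large intestine, was dim, with 60.9 and 48.0 in TG and 22.3 and 14.9 in WT. Trat1, a T cell receptor adaptor gene, lay lower in TG, by -0.32 and -0.87.

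Cd163l1 was among the genes 2-fold higher in both pairs. It encodes a membrane protein of the scavenger receptor cysteine-rich family. Signals were 86.8 and 114 in TG and 34.6 and 47.5 in WT, a difference of 1.03 ± 0.24, with 1.02 and 1.03 within the replicates. Its TG signals admitted it past the filter on dim probe sets, so its direction was partly built in. A dimmer second probe set was also higher in both pairs, by 0.55 and 1.54. Its neighbour in RefSeq order, 5830411N06Rik, had 103.5 and 164 in TG against 60.0 and 93.2 in WT, with a difference of 0.69 ± 0.19. Probe sets of related genes can bind each other's transcripts. At 12 months the differences were 0.61 and 0.64.

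Mature B cell genes lay lower in TG by a small amount. Of 23 listed genes 22 were measured, and 21 were lower in TG, beside 47.5% of all genes. In 16 the difference was negative within both replicates, beside 24.2% of all genes, and for 10 both TG arrays lay below both WT arrays, beside 7.83%. The median was -0.21, with -0.12 within replicate 1 and -0.29 within replicate 2. It rested on the TG array of replicate 2: it was 0.03 without that array and -0.42 without the other TG array. Fcer2a, which encodes CD23, the low-affinity IgE receptor of mature B cells, had signals of 959 and 1189 in TG and 1158 and 1582 in WT. The groups overlapped, but the difference within the replicates was -0.27 and -0.41 (pooled -0.34 ± 0.14), and it was the 1 gene of the list with an unadjusted p under 0.05 (0.0431, limma).

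The 10 B cell genes with TG and WT apart included Cr2, Cd72 and Vpreb3. Cr2, the complement receptor that lowers the threshold of B cell activation, had 1210 and 1157 in TG against 1526 and 1346 in WT. Cd72, an inhibitory co-receptor gene, had 891 and 1022 against 1099.9 and 1278. Vpreb3, which encodes a chaperone of the B cell receptor, had 356 and 301 against 386 and 443. The receptor chains Cd79a and Cd79b differed by 0.03 and 0.05 within replicate 1 and by -0.27 and -0.28 within replicate 2. Pax5, the transcription factor gene of B cell identity, was the 1 gene with a positive difference (0.09 ± 0.28).

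Among genes of MHC class II presentation, 8 of 10 were lower, beside 47.5% of all genes. The median was -0.06, with 0.04 within replicate 1 and -0.16 within replicate 2. Only 4 of the 10 genes were lower within both replicates, beside 24.2% of all genes. The 1 with an unadjusted p under 0.05 was H2-Ob. It encodes a chain of H2-O, a B cell protein that restrains the loading of peptides on class II molecules. Its signals were 1856 and 1331 in TG and 2374 and 1984 in WT, a difference of -0.46 ± 0.16, and -0.95 at 12 months. Plasma cell genes had a median of -0.09, with 8 of 10 lower, beside 47.5% of all genes. Jchain, which encodes the chain joining secreted IgA and IgM, differed by -0.02 and -0.29.

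**Figure D4:**
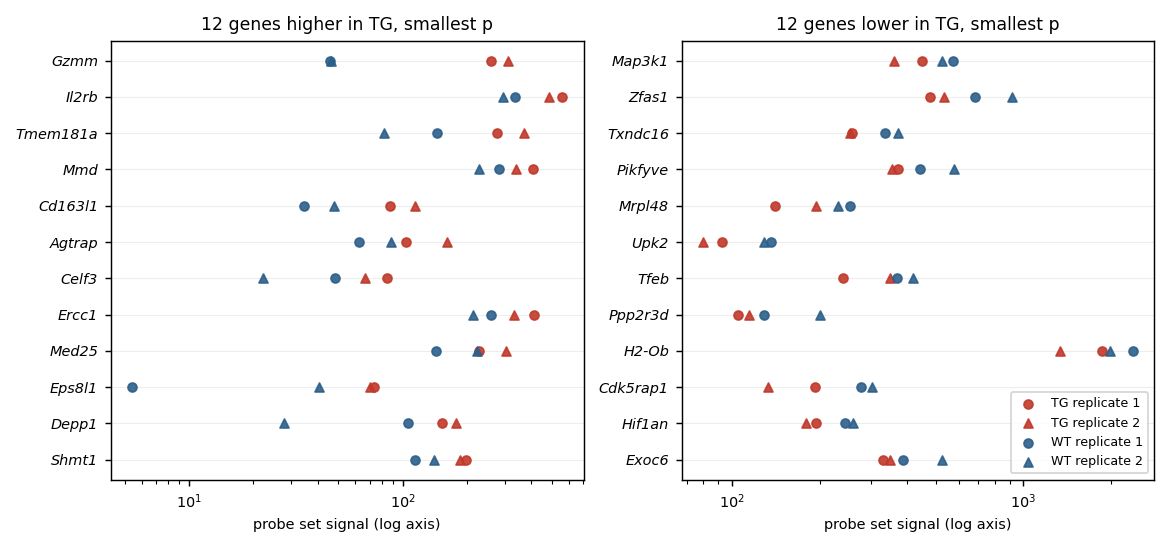
Signals (log axis) on the 4 arrays of 2 months for the 12 genes per direction with the smallest unadjusted p among genes whose TG and WT arrays did not overlap. TG is red and WT blue, circles are replicate 1 and triangles replicate 2; the gap is widest for Gzmm (259.9 and 312 against 45.7 and 46.0).

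The other genes with the smallest p among those higher in TG and apart belonged to no single pathway among the lists. Tmem181a, a membrane protein gene, had signals of 277 and 369 in TG and 146 and 81.6 in WT. It differed by 1.42 ± 0.30, with 0.86 and 1.98 within the replicates, and passed the test in the fit to the 2-month arrays (adjusted p = 0.0111, limma). At 12 months its difference was -0.78. Ercc1, which encodes a partner of the nuclease of nucleotide excision repair, had 410.4 and 332 against 259.7 and 214, and its next brightest probe set differed by 0.12 and 0.38. Mmd, a membrane protein gene of maturing macrophages, had 409.7 and 341 against 283 and 227, but its dimmest probe set went the other way, by -0.22 and -0.12. Shmt1, the cytosolic serine hydroxymethyltransferase gene of one-carbon metabolism, had 197 and 185 against 114 and 140.5, while another of its probe sets differed by -0.38 and -0.67. Med25, a Mediator subunit gene, differed by 0.52 ± 0.14, the RNA-binding protein gene Celf3 by 0.87 ± 0.22 and the angiotensin receptor partner gene Agtrap by 0.68 ± 0.17. A dimmer Agtrap probe set differed in sign between the pairs (-0.16 and 0.41). Eps8l1 (1.34 ± 0.38) and Depp1 (1.31 ± 0.37) each owed most of the difference to 1 dim WT array, at 5.42 and 27.9. For Eps8l1 the mean of the WT arrays of both ages lay under the filter on dim probe sets. Its TG signals admitted it, so its direction was partly built in. A second Depp1 probe set differed by -1.24 within replicate 1.

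In the fit to the 2-month arrays alone, 2 more genes passed that the rule for named genes does not reach, and both are named after their values were seen. Foxo3, a forkhead transcription factor gene of cell survival and quiescence, had 599.9 and 1453 in TG and 408 and 615 in WT. TG mouse 1 lay below WT mouse 2, but the difference was 0.54 and 1.22 within the replicates (adjusted p = 0.0134, limma). Bcl2l1, which encodes the survival protein BCL-XL, had 503 and 925 against 336 and 586, with 0.56 and 0.64 (adjusted p = 0.0305). Of the 10 genes called in that fit, 7 were higher in TG (Gzmm, Tmem181a, Foxo3, Il2rb, Bcl2l1, Ctsw and Cxcr3). The other 3 were lower: Klra8, Zfas1, and Ctrb1 of the pancreas list. Ctrb1 passed the filter only through the WT array of replicate 1, so its call was fixed by how it was admitted.

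Genes lower in TG had smaller differences. Zfas1, a long noncoding RNA that hosts small nucleolar RNAs, had 477 and 535 in TG and 679.8 and 912 in WT. It differed by -0.62 ± 0.18 and passed the test in the fit to the 2-month arrays (adjusted p = 0.0304, limma). Map3k1, a kinase gene of the JNK pathway, had 448 and 361 against 575 and 525. Tfeb, which encodes a transcription factor of lysosome genes, had 239.8 and 350.1 against 369.8 and 419. Hif1an, which encodes the hydroxylase that inhibits HIF1A, had 194 and 179.5 against 244 and 260.5. Its dimmer probe sets differed in sign between the pairs (-0.73 and 0.48, and -0.26 and 0.0091). Pikfyve, a lipid kinase gene of endosomes, differed by -0.46 ± 0.14 and was lower in both pairs on all 3 of its probe sets. Cdk5rap1, which encodes a mitochondrial tRNA-modifying enzyme, differed by -0.79 ± 0.28. The remaining genes of this group were Txndc16, Mrpl48, Upk2, Ppp2r3d and Exoc6, from -0.54 to -0.40, and the other probe sets of Mrpl48 and Exoc6 did not share the direction in both pairs. Vmn1r44, a vomeronasal receptor gene, was 2-fold lower in both pairs, by -1.19 and -1.15, at signals of 12.2 to 129.

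Genes of neutrophil granules lay higher in TG, mostly in replicate 2. These proteins are made by neutrophil precursors, which the mouse spleen can hold. Elane, the neutrophil elastase gene, had 169.6 and 539 in TG against 145 and 255 in WT. Mpo, the myeloperoxidase gene, had 257 and 781 against 198 and 412, and Prtn3, the proteinase 3 gene, had 157 and 607 against 122 and 324. Both genotypes were brighter in replicate 2, so the groups overlapped for each of the 3 genes while TG was above WT within each pair. Ctsg, the cathepsin G gene, had 50.2 and 172 against 16.6 and 52.9, a difference of 1.24 ± 0.46 with 1.02 and 1.45 within the replicates. It alone of the list had an unadjusted p under 0.05 (0.0287, limma). Its TG signals admitted it past the filter on dim probe sets, so its direction was partly built in. Ngp, Camp and Ltf, which encode proteins of later granules, differed by 0.13, 0.22 and 0.29 within replicate 1 and by 0.89, 0.93 and 0.93 within replicate 2. In all, 11 of the 15 measured genes were higher within both replicates, beside 27.2% of all genes. The 4 others were S100a9, Mmp8 and Csf3r, which differed in sign between the pairs, and the chemokine receptor gene Cxcr2, lower in both (-0.09 and -0.89). The list median was 0.39 over 15 of 18 genes, with 12 higher. It was 0.24 within replicate 1 and 0.70 within replicate 2, and it was -0.19 without TG mouse 2 and 1.20 without TG mouse 1.

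The difference in genes of dividing cells lay in the second pair of mice. Of 28 genes of G2/M and mitosis 27 were measured and 25 were higher, beside 52.5% of all genes, with a median of 0.22. Only 12 were higher within both replicates, beside 27.2% of all genes, and 1 was apart, beside 10.1%. Within replicate 1 the median was -0.0013 and within replicate 2 it was 0.47. Top2a, the topoisomerase gene of replicating chromosomes, had 769.6 and 1481 in TG against 770.3 and 1028 in WT, and the spindle checkpoint gene Bub1b 199.97 and 383 against 185 and 263. The list median was -0.20 without TG mouse 2 and 0.68 without TG mouse 1. The erythroid list showed the same split, with medians of -0.22 and 0.46. Of its 15 measured genes 3 were higher within both replicates, beside 27.2% of all genes. Among these was Tspo2 (0.63 and 0.39), the 1 gene of the list with an unadjusted p under 0.05 (0.0479, limma). Klf1, the transcription factor gene of red cell precursors, had 382 and 1116 in TG against 409.7 and 704 in WT. Whether erythroid precursors account for the mitosis genes was not tested.

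Among DNA replication genes, 28 of 35 measured were higher, beside 52.5% of all genes, with a median of 0.09 (0.0040 and 0.22). Fen1, the flap endonuclease that trims Okazaki fragments, was the 1 with an unadjusted p under 0.05 (0.0035, limma). It had 970.1 and 1563 in TG against 712 and 1006 in WT, with 0.44 and 0.63 within the replicates. Among G1 regulators, Cdk4 (0.30 ± 0.13) and E2f1 (0.48 ± 0.20) reached an unadjusted p under 0.05, and E2f1 differed by 0.50 and 0.46. Of the 24 genes of growth and ribosome production 19 were higher, beside 52.5% of all genes, with a median of 0.08. That median was -0.03 within replicate 1 and 0.19 within replicate 2. Only 7 of the 24 were higher within both replicates, beside 27.2% of all genes. Myc itself differed by 0.17 and -0.05.

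The other lists stayed near the median of all genes, each within 0.1 of 0 pooled except 1. Of all genes, 52.5% were higher in TG. Megakaryocyte and platelet genes were all higher, 12 of 12, but by a median of 0.09, and 1 of them was apart, beside 10.1% of all genes. Macrophage and monocyte genes had a median of 0.06 (16 of 22 higher), dendritic cell genes -0.06 (5 of 14), interferon response genes 0.05 (12 of 20), inflammatory cytokine and NF-kB genes -0.04 (5 of 16) and p53 targets -0.02 (5 of 11). Immediate early genes had a median of -0.04, and Egr3, a transcription factor gene induced by antigen receptor signals, was lower in both pairs (-0.37 and -0.35, unadjusted p = 0.0277 in limma). HMG protein genes had a median of -0.05, and of the 9 measured Hmgb3 had the largest t, with 478 and 661 in TG against 474 and 403 in WT. Of genes tied to HMGA1 in earlier work, 5 of 9 were measured, 2 higher and 3 lower; Insr, the insulin receptor gene, differed by -0.15 ± 0.16. Pluripotent stem cell genes had the exception, 0.20, over only 4 of 12 measured, all 4 higher; Klf4 had 359 and 293 in TG against 281 and 248.8 in WT. No gene of the pluripotency list had an unadjusted p under 0.05 (limma). Hematopoietic stem and progenitor genes had a median of -0.05, with 4 of 15 higher.

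**Figure D5:**
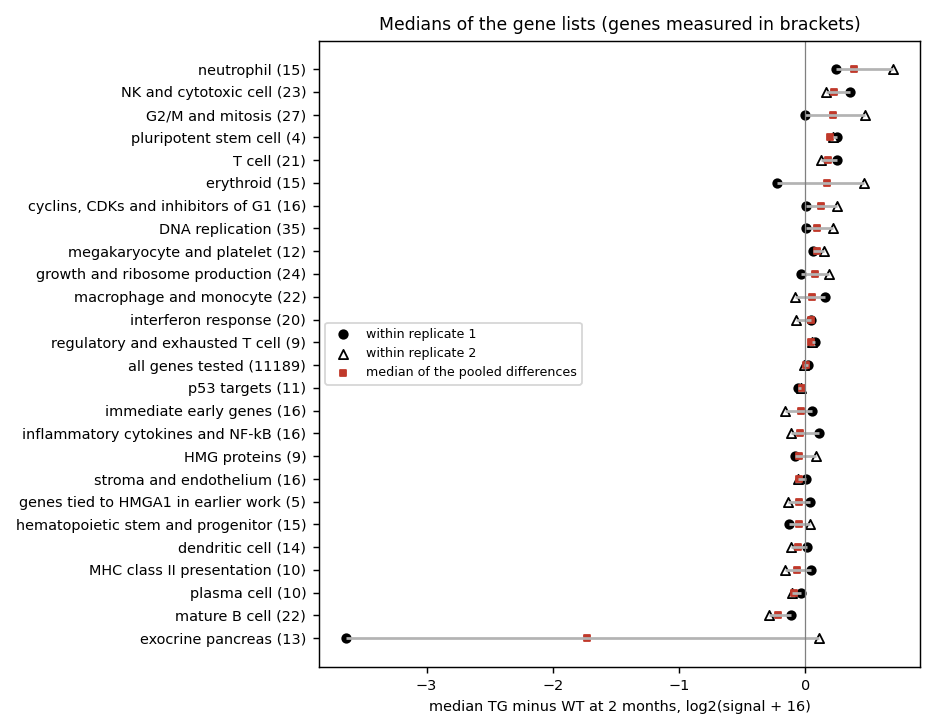
Median difference TG minus WT on log2(signal + 16) for each gene list, with the number of measured genes in brackets. Circles are replicate 1, triangles replicate 2 and squares the pooled median; the exocrine pancreas list runs from -3.64 to 0.11, and the NK and T cell lists lie right of 0 in both replicates.

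Some genes split the pairs. Beside the pancreas genes, those with the largest gap between the replicates were higher in TG in replicate 1 and lower in replicate 2. Cysrt1 had 144 and 34.1 in TG against 22.5 and 48.0 in WT, and Susd5, a sushi domain protein gene, had 202 and 27.2 against 88.9 and 92.4. Tmem63b, an ion channel gene, had 119.5 and 13.2 against 88.2 and 125, and Wdtc1 had 13.0 on 1 WT array and 110.2 to 209.6 on the others. In each of the 4, 1 or 2 arrays stood apart from the rest. Rusc2 and Rimklb differed by 0.82 and 0.92 within replicate 1 and by -1.35 and -1.20 within replicate 2.

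The 12-month arrays, which are other mice, give a second look at the genes that differed at 2 months. Of the 111 genes higher at 2 months with an unadjusted p under 0.05, 66 (59.5%) were higher at 12 months, beside 45.2% of all genes. With an unadjusted p under 0.05 at 12 months (limma), 22 were higher (19.8%, beside 7.26% of all genes). In the opposite direction 15 were lower (13.5%, beside 12.6%). Of the 78 genes lower at 2 months, 53 (67.9%) were lower at 12 months, beside 54.8% of all genes. With an unadjusted p under 0.05 at 12 months (limma), 20 were lower (25.6%, beside 12.6%) and 1 was higher (1.28%, beside 7.26%). The test of the difference between the ages called 0 genes, with 911 unadjusted p-values under 0.05 (8.14%) and a smallest adjusted p of 0.218 (limma).

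Several cytotoxic genes lay further apart at 12 months. Gzma differed by -0.53 at 2 months and by -2.17 at 12 months (unadjusted p of the difference between ages 0.00118, limma), and Klra8 by -0.98 and -2.59 (0.0411). In the other direction Ccl5 differed by 0.40 and 1.39 (0.0476), Ctsw by 0.60 and 1.08, Nkg7 by 0.43 and 1.25, and Cd8b1 by 0.51 and 1.30. The larger values at 12 months lay mostly in replicate 1: there Ctsw, Nkg7 and Cd8b1 differed by 1.73, 2.01 and 2.10, and within replicate 2 by 0.42, 0.50 and 0.51, near their values at 2 months. The median of the NK and cytotoxic cell list at 12 months was 0.93 within replicate 1 and -0.01 within replicate 2. Gzma differed by -2.60 and -1.74 there, and Klra8 by -3.41 and -1.78. Il2rb was near the same at both ages, 0.70 and 0.49. Of the B cell genes, Cr2 went from -0.27 to -1.56 and Fcer2a from -0.34 to -1.48 (0.000380 and 0.00044). None of these differences between ages passed the test after adjustment.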

How the data were processed

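The authors deposited 1 table of probe set signals, a linear intensity, for 8 arrays. Per the submitters' processing notes it was made with GCOS 1.4 and MAS5. The values fit scaling of each array by 1 factor: the trimmed mean, without the lowest and highest 0.02, was 150.001 on all 8 arrays. Log, floor and genome build were not given in the sources used here.

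Values were taken as log2(signal + 16). Of 45101 probe sets, 64 were controls, 34945 had 1 symbol in the platform annotation, 932 had several and 9160 had none. Names were updated by gene ID through a RefSeq table (GRCm38.p6) for 34754. Dim probe sets, whose mean over the arrays lay below the median of all (a signal of 45.25), were left out. The brightest of the 19308 left with 1 symbol stood for each gene, which gave 11189 genes.

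limma 3.58.1 in R 4.3.3 (lmFit, eBayes with an intensity trend) was fitted to all 8 arrays with 4 group means and the replicate number as a block (3 residual and 4.84 prior degrees of freedom), Benjamini-Hochberg adjusted over all genes at 0.05, two-sided. It was tested on simulated data with independent normal noise and the same spread at both ages. Data with an array that stands apart, or with a spread that differs by age, were not simulated. The block was kept because deviations of same-numbered arrays from their group means correlated across genes for all 6 pairs of groups (r from 0.464 to 0.654). The labels call the samples biologic replicates, and the number of arrays limits the precision. Alternatives were no block, the 2-month arrays alone, other added constants, other filters, quantile normalization, averaged probe sets, no trend, and each array left out.

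Named genes were, per direction, the 12 with the smallest p among genes with TG and WT apart, those 2-fold in both replicates, the 6 with the largest gap between replicates, all measured pancreas, NK and B cell genes, and from each other list the 3 with the largest t and its defining members. Immunoglobulin and T cell receptor segments, clones and predicted genes were counted only. The members and the 27 gene lists were chosen with earlier results of these data known. Lists are described by counts and medians, without a test.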

Additional observations from a re-analysis of the deposited data

Results flagged for a closer look

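Of the 28 genes named for their p or for a 2-fold difference in both pairs, 8 lay one way in both pairs at 2 months and the opposite way in both pairs at 12 months. The share of all genes with such a reversal was not counted, so the 8 cannot be read as an excess. At 12 months 54.8% of all genes lay lower in TG. The difference of the TG effects, 2 months minus 12 months on log2(signal + 16), was 2.20 for Tmem181a, 1.86 for Depp1, 1.10 for Celf3, 1.03 for Ercc1, 0.82 for Mmd, 0.82 for Agtrap, 0.66 for Med25 and -0.56 for Mrpl48. Of these, 7 were higher in TG at 2 months and lower at 12 months, and Mrpl48 was lower at 2 months with a difference of 0.05 at 12 months. The 28 genes were chosen by their values at 2 months, which enter this difference too, so large differences are partly built in. None passed after adjustment over all genes (limma, adjusted p 0.598 to 0.607).

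On the WT array of replicate 1 at 2 months, 6 probe sets without a single gene symbol, which no comparison used, were at least 4 times as bright as on every other array. Their signals were 237 to 8307 there and at most 327 elsewhere.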

How the results depend on the processing

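Without the replicate block, 44 genes had an unadjusted p under 0.05 in place of 189, and the fold changes were the same because each group holds 1 mouse of either number. With the 2-month arrays only, 10 genes passed, 703 had an unadjusted p under 0.05, and Gzmm, at 2.28, passed (adjusted p = 4.98e-06). With no filter on dim probe sets, 499 genes had an unadjusted p under 0.05 and 25 were 2-fold in both replicates, and with a filter at the 75th percentile these were 98 and 1. The 2-fold count was 1 with 64 as the added constant and 3 after quantile normalization. The NK and cytotoxic median was 0.39 with the stricter filter and 0.072 with averaged probe sets.

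With each array left out in turn, 0 to 5 genes passed, 128 to 468 had an unadjusted p under 0.05 and 0 to 40 differed between ages. The largest number passing came without the WT array of replicate 2 and held only pancreas genes (Cela2a at -4.94). There TG was set against the 1 WT array where they were high, so it is a description and no test. The largest number between ages came without the TG array of replicate 2 at 12 months. The median ranged from -0.42 to 0.029 for mature B cell genes, 0.035 to 0.40 for NK and cytotoxic genes and -3.79 to 0.18 for pancreas genes. Gzmm ranged from 1.93 to 2.63, and over its 17 alternatives its adjusted p ran from 4.98e-06 to 1. The 2-fold count stayed at 6 where an array of 12 months was left out, and was not run without an array of 2 months, which breaks a pair. None of the 28 genes chosen for their p or 2-fold difference changed sign under any setting. Their choice already asked for 1 direction across the 2-month arrays or in both pairs, so this was largely built in. Apart from leaving out arrays, 4 list medians near 0 did: p53 targets (0.0091 without the filter, 0.024 with averaged probe sets), inflammatory cytokines and NF-kB (0.057 without the filter), and, with averaged probe sets, immediate early genes (0.013) and genes tied to HMGA1 (0.044).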
